A study of Mus musculus with 12 samples.

Results

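The 39 Hox genes of the 4 mouse Hox clusters were followed through 12 poly(A) RNA libraries of thymic tissue. Members were all gene symbols made of Hox, a cluster letter and a number, 39 of 24478 symbols in the tables: 11 in HoxA, 10 in HoxB, 9 in HoxC and 9 in HoxD. A symbol with several transcripts was represented by the transcript with the most reads. There were 4 groups of 3 libraries. The controls were T lymphocytes by their label and held no MYC but the endogenous one. T58A lymphomas and S62A lymphomas were spontaneous thymic lymphomas labelled as T cells with ectopic MYC only, carrying alanine in place of a threonine (T58A) or a serine (S62A) of the MYC protein. The S62A splenomegaly libraries came from thymic masses of S62A mice with an enlarged spleen, labelled as T and B cells that hold both the ectopic mutant and endogenous MYC. Age, strain, the promoter that drives the ectopic MYC and whether each library of a group is a separate animal are points on which the labels are silent, so p-values here read the spread among libraries, some of which may be technical. Replicates are numbered by accession. Control 1 and 2 carry title codes that start with G, control 3 and the T58A lymphomas H, and both S62A groups I; the labels do not explain the letter.

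Hox genes encode transcription factors that bind DNA through a homeodomain and specify position along the body axis of the embryo. They lie in 4 clusters in which the order along the chromosome follows the order of expression from head to tail, and genes of the same number in different clusters, called paralogues, descend from 1 ancestral gene. In blood formation several of them, such as Hoxa9 and Hoxb4, are known for their expression in stem and progenitor cells and for falling as cells mature, and the thymus itself forms under the control of Hoxa3.

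The tissue and its cells differed strongly between the groups. Depth ranged from 9577373 to 22437969 reads a library. Myc, tested here only as a check of the labels, stood at 79.9 to 85.5 CPM (reads scaled to library depth with TMM factors) in controls, 134 to 159 in lymphomas with T58A, 157 to 203 in those with S62A and 84.2 to 100 in the splenomegaly masses. Counts per gene cannot show which form of MYC was read. FPKM, reads scaled to transcript length and library depth, gives levels that can be compared between genes. The summed FPKM of 13 thymocyte markers was 7240 to 7420 in controls, 2410 to 2690 in lymphomas with T58A, 1300 to 2550 in those with S62A and 449 to 481 in the splenomegaly masses. Ptcra, the pre-T cell receptor alpha chain, was at 0 reads in all 3 T58A lymphomas. It fell against controls in both kinds of lymphoma and in the splenomegaly masses, and was not called between those groups. The 7 B cell markers summed to 56.3 to 60.3 in controls, 17.8 to 250 in lymphomas with T58A, 17.2 to 34.5 in those with S62A and 1240 to 1650 in the splenomegaly masses. Thymic epithelial markers, of which 10 remained after Cd74 was dropped because B cells and macrophages hold it, summed to 1730 to 1930 in controls, 78.7 to 122 in lymphomas with T58A, 17.1 to 31.3 in those with S62A and 48.4 to 53.0 in the splenomegaly masses. In such bulk samples fewer cells of a type and less RNA per cell cannot be told apart.

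Hox transcripts were scarce in every library. They took 194 to 1438 reads a library and 8416 in all. No read was found in any library for 5 members: Hoxa11, Hoxa13, Hoxc12, Hoxd12 and Hoxd13. Another 17 held 1 to 76 reads in all and did not pass the filter on low counts. The 17 members that were tested held at least 67 reads each, among them Hoxa2, Hoxa3, Hoxa4, Hoxa5, Hoxa7 and Hoxa9, Hoxb2, Hoxb3, Hoxb4, Hoxb5 and Hoxb7, Hoxc4 and Hoxc5, and Hoxd4, Hoxd8 and Hoxd9. Because a member can pass the filter through the group in which it is high, counts of the main test below are over tested members and say nothing of the other 22. On the mm9 assembly HoxA spans chr6:52105366-52210874 on the minus strand, HoxB chr11:96055675-96229567, HoxC chr15:102751562-102867283 and HoxD chr2:74506367-74603199, all 3 on the plus strand. HoxA held 3140 reads, HoxB 3459, HoxC 390 and HoxD 1427.

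**Figure D1:**
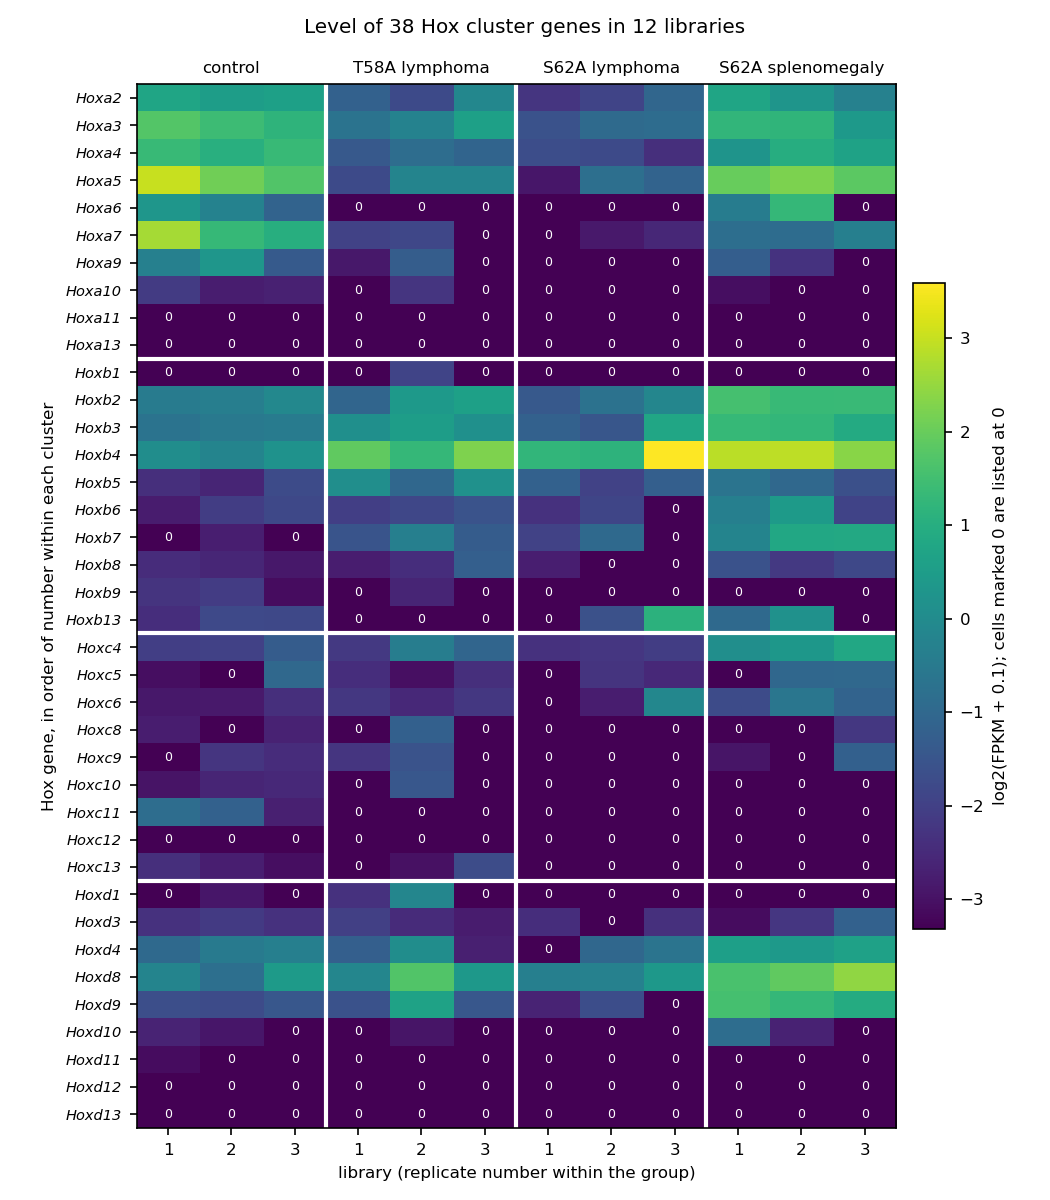
Each row is 1 of 38 of the 39 Hox genes and each column 1 of the 12 libraries; the colour is log2(FPKM + 0.1) and a 0 marks a gene listed at 0. Genes of the HoxA cluster from Hoxa2 to Hoxa7 are brighter in the 3 controls than in the lymphomas, and Hoxb4 is brighter in all 9 other libraries than in the controls.

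The groups differed in which cluster supplied most of the Hox RNA. HoxA genes summed to 24.0, 14.8 and 12.4 FPKM in the 3 controls, 2.49, 2.96 and 3.70 in lymphomas with T58A, 0.928, 1.74 and 1.98 in those with S62A, and 11.2, 13.2 and 8.08 in the splenomegaly masses. All 6 lymphomas were below all 6 other libraries, and the splenomegaly masses overlapped the controls. HoxB genes summed to 2.50, 2.68 and 3.14 FPKM in controls, 6.41, 6.48 and 8.99 in lymphomas with T58A, 3.51, 3.86 and 16.7 in those with S62A, and 15.1, 16.7 and 11.6 in the splenomegaly masses. All 9 libraries of the other groups were above all controls, while the S62A mean of 8.04 fell to 3.68 without S62A lymphoma 3. HoxC sums were small, between 0.0974 and 2.89 FPKM. HoxD genes summed to 1.58, 1.49 and 2.31 FPKM in controls, 1.61, 6.50 and 1.55 in lymphomas with T58A, 0.842, 1.33 and 1.82 in those with S62A, and 7.65, 7.36 and 8.93 in the splenomegaly masses. The T58A mean of 3.22 for HoxD fell to 1.58 without T58A lymphoma 2.

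**Figure D2:**
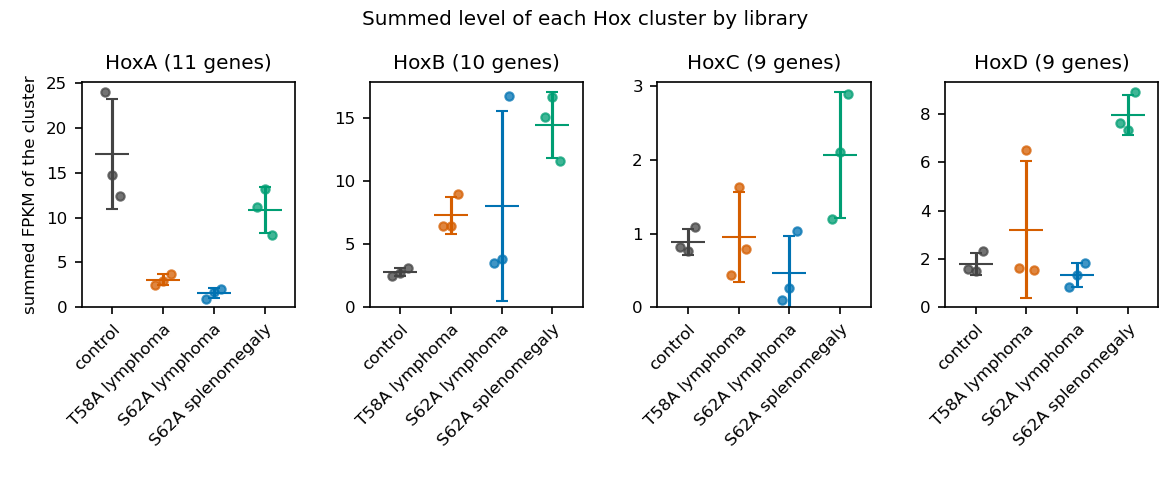
Summed FPKM of each Hox cluster, with 1 point a library, a line at the mean and bars of 1 SD over 3 libraries; each panel has its own scale from 0, and the bar of HoxC in S62A lymphomas is cut at 0. HoxA is lowest in the 6 lymphomas, at 0.928 to 3.70 FPKM, and HoxD is highest in the splenomegaly masses, at 7.36 to 8.93 FPKM.

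As a share of all Hox FPKM, HoxA made up 83.0, 75.0 and 65.5% in controls, 22.8, 16.9 and 24.6% in lymphomas with T58A, 17.3, 24.2 and 9.17% in those with S62A, and 31.8, 33.6 and 25.7% in the splenomegaly masses. HoxB made up 8.65 to 16.6% in controls, 36.9 to 59.8% in lymphomas with T58A, 53.6 to 77.6% in those with S62A and 36.8 to 43.0% in the splenomegaly masses. Hoxa5 was the leading Hox gene in all 3 controls, with 16.7 to 27.6% of the Hox FPKM. Hoxb4 led in 7 of the other 9 libraries, and Hoxd8 led in T58A lymphoma 2 and splenomegaly mass 3. By position, genes of the central paralogue groups 4 to 8 held 58.5 to 72.9% of the Hox FPKM in every library, those of groups 1 to 3 held 18.3 to 33.6%, and the posterior groups 9 to 13 held 1.14 to 14.3%. The ranges by position overlapped between controls and each other group, whereas the HoxA and HoxB shares of controls did not overlap with those of any other group.

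The promoters of 5 genes on which the results turn are shown here: Hoxa2, Hoxa5 and Hoxa7 from the cluster that was low in lymphomas, Hoxb4 from the cluster that was high outside the controls, and Hoxd8, high in the splenomegaly masses. Each is the 250 bases before a transcription start in RefSeq on GRCm38.p6, which is not the assembly of the tables, and reads 5′ to 3′ on the strand of the gene. Windows were matched by gene symbol, so a window can belong to another transcript than the one counted. Hoxd8 has 3 listed transcripts, and its window is not the one beside the start of the counted transcript. Capitals mark CCAAT on either strand and, in Hoxa2, the letters TGATNNAT on either strand, a composite of PBX and Hox half-sites. The windows are chr6:52164832-52165081 (minus) for Hoxa2, chr6:52204588-52204837 (minus) for Hoxa5, chr6:52218574-52218823 (minus) for Hoxa7, chr11:96318017-96318266 (plus) for Hoxb4 and chr2:74704365-74704614 (plus) for Hoxd8.
Hoxa2: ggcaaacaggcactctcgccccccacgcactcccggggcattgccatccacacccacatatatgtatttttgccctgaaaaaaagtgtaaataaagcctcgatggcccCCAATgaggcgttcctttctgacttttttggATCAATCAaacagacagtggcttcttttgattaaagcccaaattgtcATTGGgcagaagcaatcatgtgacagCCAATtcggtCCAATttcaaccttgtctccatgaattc
Hoxa5: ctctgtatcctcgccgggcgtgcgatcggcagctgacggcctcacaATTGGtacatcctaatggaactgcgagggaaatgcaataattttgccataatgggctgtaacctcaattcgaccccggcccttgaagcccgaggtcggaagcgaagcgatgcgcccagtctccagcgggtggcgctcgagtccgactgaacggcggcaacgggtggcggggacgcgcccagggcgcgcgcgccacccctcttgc
Hoxa7: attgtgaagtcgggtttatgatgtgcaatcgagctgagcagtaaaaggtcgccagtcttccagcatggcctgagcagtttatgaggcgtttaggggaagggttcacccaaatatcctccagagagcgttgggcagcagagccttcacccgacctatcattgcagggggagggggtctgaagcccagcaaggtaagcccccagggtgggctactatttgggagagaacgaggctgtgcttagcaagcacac
Hoxb4: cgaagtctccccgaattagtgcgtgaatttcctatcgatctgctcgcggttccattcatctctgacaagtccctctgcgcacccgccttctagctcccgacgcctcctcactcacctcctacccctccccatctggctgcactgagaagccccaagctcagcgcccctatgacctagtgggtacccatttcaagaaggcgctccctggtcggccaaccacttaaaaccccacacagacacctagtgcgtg
Hoxd8: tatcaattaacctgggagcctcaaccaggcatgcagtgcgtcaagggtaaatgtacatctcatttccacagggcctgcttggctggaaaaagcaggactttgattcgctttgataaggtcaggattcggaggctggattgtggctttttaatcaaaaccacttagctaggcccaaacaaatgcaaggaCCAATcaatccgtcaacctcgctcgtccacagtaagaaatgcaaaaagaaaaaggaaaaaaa

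Promoters were found for 22 of the 39 members, in 24 windows. CACGTG, the E-box that MYC and its partner MAX are known to bind, lay in 4 of the 24 windows, those of Hoxd1, Hoxd10, Hoxd11 and Hoxd13, and in 6.02% of the 32851 promoters of the same length. None of the 5 windows printed holds it. TGATNNAT lay in 4 windows (Hoxa2, Hoxb1, Hoxb8 and Hoxd11) and in 7.68% of all promoters, TATAAA in 4 and 12.4%, CCAAT in 14 and 33.8%, and the GC box GGGCGG in 10 and 32.7%. The median ratio of observed to expected CpG was 0.721 in the windows of members and 0.373 in all promoters. A match describes the letters and is not a measured binding site, and a window without a match says nothing of binding elsewhere.

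In T58A lymphomas against controls, HoxA genes were lower and HoxB genes higher. Of the 17 tested members 3 rose and 4 fell at an adjusted p under 0.05 (edgeR's quasi-likelihood test, adjusted by Benjamini and Hochberg over all 15606 genes), against 36.2% of all genes called in this comparison. In HoxA 4 of 7 fell and none rose, with a median log2 fold change of -2.53, and in HoxB 3 of 5 rose and none fell, with a median of 1.96; the median of all genes was 0.01. Falls made up 17.4% and rises 18.8% of all genes. In CPM, the scale of every such count here, libraries of the groups did not overlap for 9 of the 17 members and for 60.0% of all genes.

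Hoxa5, a gene of lung and axial skeleton development that is also expressed in blood progenitors, stood at 7.98, 4.14 and 3.17 FPKM in controls (264, 128 and 127 reads) and at 0.196, 0.764 and 0.766 in T58A lymphomas (6, 25 and 23 reads). Its groups did not overlap, and it fell by 3.11 ± 0.70 on the log2 scale (SE, adjusted p = 0.00568). Hoxa7, the neighbour of Hoxa9 in the cluster, stood at 6.18, 2.36 and 1.92 FPKM in controls and 0.157, 0.176 and 0 in T58A lymphomas. With 369 against 11 reads it fell by 4.88 ± 0.92 (adjusted p = 0.00214). Control 1 held more than the other controls of Hoxa5, Hoxa7 and the whole HoxA sum, and without it the fall of Hoxa7 was 4.18 (adjusted p = 0.014). Hoxa4 stood at 2.43, 1.96 and 2.41 FPKM in controls and 0.283, 0.454 and 0.372 in T58A lymphomas, a fall of 2.58 ± 0.46 (adjusted p = 0.00153). Hoxa3, required for the formation of the thymus, stood at 3.24, 2.58 and 2.17 FPKM in controls and 0.521, 0.744 and 1.42 in T58A lymphomas, a fall of 1.55 ± 0.45 (adjusted p = 0.0199). The Hoxa3 transcript spans Hoxa4, Hoxa5 and Hoxa6 on the same strand, so reads could be shared among them.

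Hoxb4, known for expanding blood stem cells, stood at 0.940, 0.772 and 1.05 FPKM in controls (43, 33 and 58 reads) and 3.66, 2.32 and 4.65 in T58A lymphomas (155, 105 and 193 reads). All 3 lymphomas were above all 3 controls, and it rose by 1.96 ± 0.61 (adjusted p = 0.0272). Hoxb5 stood at 0.0897, 0.0640 and 0.198 FPKM in controls and 0.968, 0.393 and 1.02 in T58A lymphomas, a rise of 2.71 ± 0.67 (adjusted p = 0.00933). Hoxb7 had 1 read in the 3 controls together and 26 in the T58A lymphomas, 29.5 times as many after scaling to depth (exact 95% counting interval 4.84 to 1210, adjusted p = 0.02). Hoxb2 and Hoxb3 differed by 0.52 ± 0.53 and 0.95 ± 0.58 and did not pass the test.

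Among the members not called, Hoxa2, a regulator of hindbrain and neural crest patterning, came nearest: it stood at 1.57, 1.34 and 1.43 FPKM in controls and 0.345, 0.194 and 0.812 in T58A lymphomas, without overlap, with a difference of -1.65 ± 0.62 (adjusted p = 0.0559). Calls for Hoxa3, Hoxb4, Hoxb5 and Hoxb7 were lost when single libraries were left out: Hoxa3 without control 1 or 2 or T58A lymphoma 1 or 2 (adjusted p 0.0527 to 0.0766), Hoxb4 without any control or without T58A lymphoma 1 or 3 (0.0572 to 0.0919), Hoxb5 without control 1 or 2 (0.0515 to 0.0532) and Hoxb7 without control 1 or 3 or T58A lymphoma 2 (0.0593 to 0.0807). With control 3 as the only control, which keeps to 1 title letter, no member was called. Over the same comparison 10 of 13 thymocyte markers and 6 of 10 epithelial markers fell, while 6 of 7 macrophage, 5 of 10 fibroblast (without Thy1), 4 of 7 B cell, 2 of 7 endothelial and 4 of 8 progenitor markers (Mef2c, Lmo2, Mecom and Lyl1) rose and the progenitor marker Kit fell; their part in the Hox differences was not tested.

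In S62A lymphomas 6 of the 7 tested HoxA genes fell against controls, and Hoxb4 was the HoxB gene called as a rise. Of the tested members 1 rose and 6 fell, against 44.1% of all genes called, 22.2% of them falls and 21.9% rises. In HoxA 6 of 7 fell, with a median log2 fold change of -3.63 where that of all genes was 0.00, and in HoxB 1 of 5 rose, with a median of 1.27. Hoxb7, with 10 reads against 1 in controls, did not pass (edgeR, adjusted p = 0.0637). It was called by DESeq2 (adjusted p = 0.045) and by edgeR without S62A lymphoma 3 (adjusted p = 0.0203). Hoxa5 stood at 0.0344, 0.474 and 0.363 FPKM in S62A lymphomas (1, 12 and 10 reads), a fall of 4.03 ± 0.75 (adjusted p = 0.0015). Hoxa4 stood at 0.213, 0.196 and 0.0901 FPKM, a fall of 3.63 ± 0.50 (adjusted p = 0.000239), and Hoxa3 at 0.236, 0.421 and 0.443, a fall of 2.76 ± 0.48 (adjusted p = 0.00101). For each of these genes all 3 S62A lymphomas lay below all 3 controls; libraries of these groups did not overlap for 7 of the 17 members and for 60.3% of all genes.

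Hoxa2 stood at 0.109, 0.167 and 0.385 FPKM in S62A lymphomas and fell by 2.59 ± 0.66 (adjusted p = 0.00845), or by 3.26 without S62A lymphoma 3. Hoxa7 had 0, 1 and 2 reads in S62A lymphomas and 213, 76 and 80 in controls, 90.6 times lower (counting interval 30.7 to 441, adjusted p = 0.000744). Hoxa9, a central gene of stem cell self-renewal and of leukaemias with MLL fusions, had 41, 62 and 20 reads in controls and none in any S62A lymphoma, which was at least 30.2-fold lower when 3 reads over the group are taken as the floor (adjusted p = 0.0166).

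Hoxb4 stood at 2.24, 2.12 and 12.0 FPKM in S62A lymphomas (90, 74 and 455 reads), all above the controls, and rose by 2.65 ± 0.62 (adjusted p = 0.00578). Without S62A lymphoma 3 the rise was 1.33 and still called (adjusted p = 0.0103). All 7 calls of this comparison were kept when any single library was left out. In the same comparison 11 of 13 thymocyte markers and all 10 epithelial markers fell and 7 of 7 macrophage and 4 of 10 fibroblast markers rose. Of 8 progenitor markers 3 fell (Cd34, Kit and Flt3) and 1 rose (Lmo2), and 3 of 7 B cell and 3 of 5 adipocyte markers fell. Their part in the Hox differences was not tested.

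**Figure D3:**
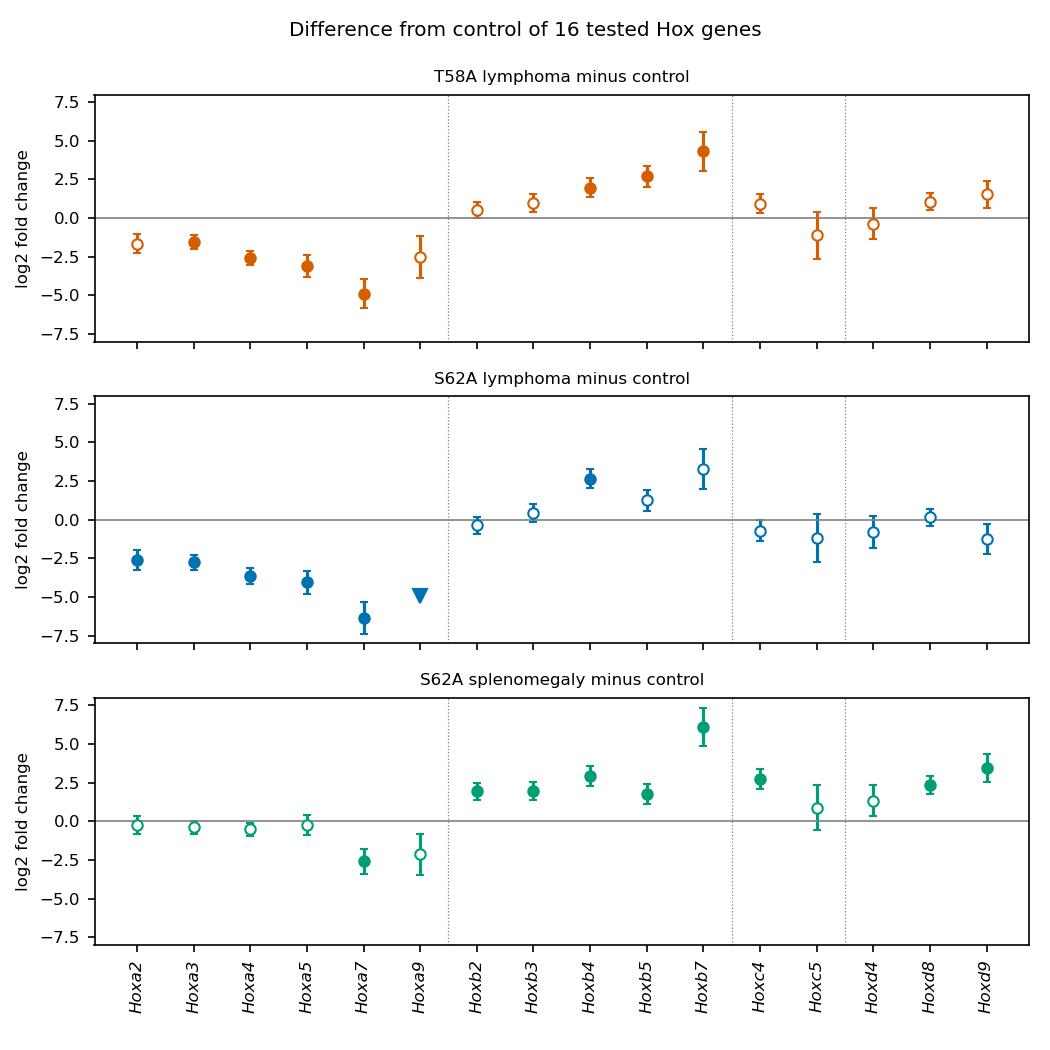
Log2 fold change against controls of 16 of the 17 tested Hox genes, with bars of 1 SE; filled symbols passed an adjusted p of 0.05, and the triangle is a lower bound for Hoxa9, which had 0 reads in S62A lymphomas. The filled symbols of HoxA lie below 0 in all 3 panels and those of HoxB above 0; Hoxb7 (T58A lymphoma and splenomegaly panels) and Hoxa7 (S62A lymphoma panel) rest on 1 to 3 reads in 1 of the 2 groups.

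In the S62A splenomegaly masses, 1 of the HoxA genes fell, while all tested HoxB genes and some genes of HoxC and HoxD rose. Of the tested members 8 rose and 1 fell against controls, where 49.2% of all genes were called, 22.9% of them rises and 26.3% falls. In HoxB all 5 tested members rose, with a median log2 fold change of 1.98, in HoxC 1 of 2 rose, with a median of 1.81, and in HoxD 2 of 3 rose, with a median of 2.34; the median of all genes was -0.08. In HoxA 1 of 7 fell and the median was -0.39. Libraries did not overlap between these groups for 10 of the 17 members and for 70.5% of all genes.

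Hoxb4 stood at 7.31, 7.44 and 5.06 FPKM in the masses against 0.772 to 1.05 in controls and rose by 2.94 ± 0.63 (adjusted p = 0.0028). Hoxb2 stood at 2.81, 2.44 and 2.48 FPKM against 0.630, 0.675 and 0.840, a rise of 1.95 ± 0.54 (adjusted p = 0.0117), and Hoxb3 at 2.37, 2.31 and 1.76 against 0.521, 0.593 and 0.639, a rise of 1.98 ± 0.59 (adjusted p = 0.0164). Hoxb5 rose by 1.77 ± 0.67 (adjusted p = 0.0477), from 3, 2 and 8 reads to 19, 7 and 6. Hoxb7 had 67 reads in the masses against 1 in controls, 95.3 times higher (counting interval 16.5 to 3820, adjusted p = 0.00206).

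Hoxd8 stood at 2.94, 3.63 and 5.33 FPKM in the masses against 0.774, 0.473 and 1.26 in controls and rose by 2.34 ± 0.58 (adjusted p = 0.00605). Hoxd9, its neighbour, stood at 2.84, 2.34 and 1.81 FPKM against 0.215, 0.201 and 0.267 and rose by 3.44 ± 0.90 (adjusted p = 0.00864). Hoxc4, the gene at the 3′ end of HoxC, stood at 0.960, 1.16 and 1.67 FPKM against 0.143, 0.153 and 0.307 and rose by 2.72 ± 0.64 (adjusted p = 0.00493). For each of these 3 genes every mass lay above every control. Hoxd4 stood at 1.39, 1.22 and 1.45 FPKM against 0.419, 0.623 and 0.693 and did not pass (1.33 ± 0.999, adjusted p = 0.291).

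Hoxa7 was the HoxA gene that fell in the masses, to 0.461, 0.449 and 0.686 FPKM, by 2.59 ± 0.81 (adjusted p = 0.0203). Hoxa5 stood at 3.87, 4.56 and 3.50 FPKM, within the range of the controls, with a difference of -0.25 ± 0.63, and Hoxa3 at 2.23, 2.18 and 1.23, with -0.39 ± 0.44. Hoxa2 (-0.23 ± 0.59) also overlapped the controls. Hoxa9 had 20, 3 and 0 reads against 41, 62 and 20 in controls and overlapped them. Its difference of -2.14 ± 1.34 did not pass (edgeR, adjusted p = 0.215), though limma called it (adjusted p = 0.0315). Hoxa4 stood at 1.08, 1.88 and 1.49 FPKM, below all 3 controls on this scale though not in CPM, with a difference of -0.52 ± 0.43 that did not pass. The intervals of these differences are wide, and a p above the threshold does not show that the levels were equal. Without control 1, 5 members were called, all of them rises: the calls of Hoxa7 (-1.90, adjusted p = 0.126), Hoxb2 (0.051), Hoxb3 and Hoxb5 were lost. Hoxb3 also lost its call without control 2 (0.0533 to 0.0603 over both), Hoxb5 without control 2 or mass 1 or 2 (0.0875 to 0.168 with control 1) and Hoxa7 without mass 1 or 2 (0.0645 to 0.126 with control 1). The Hoxb5 call was also lost with library size alone, no filter and summed transcripts. In the masses all 7 B cell, 7 of 7 macrophage, 7 of 7 endothelial and 7 of 8 progenitor markers rose against controls. All 13 thymocyte and 8 of 10 epithelial markers fell. Of 10 fibroblast markers without Thy1, 3 rose and none fell, and they summed to 281 to 516 FPKM against 111 to 138 in controls. The part of all these markers in the Hox differences was not tested.

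Between the 2 kinds of lymphoma no Hox gene passed the test. In S62A against T58A lymphomas none of the 17 tested members was called, where 3.15% of all genes were; 5 had an unadjusted p under 0.05, and DESeq2 called 1, Hoxd9 (adjusted p = 0.036). All 7 tested HoxA members had lower fitted levels in S62A lymphomas, with a median log2 fold change of -1.06 and none of them called. For 4 of the 17 members, and 21.1% of all genes, the lymphomas did not overlap. Hoxa3 and Hoxa4 were among them, with differences of -1.21 ± 0.47 (adjusted p = 0.157) and -1.06 ± 0.50 (adjusted p = 0.225). Hoxb3 was called without S62A lymphoma 3 (-1.79, adjusted p = 0.0448). Of the markers, 3 of 7 B cell, 2 of 8 progenitor, 2 of 10 epithelial and 1 of 10 fibroblast ones (without Thy1) were lower in S62A lymphomas. Their part was not tested. Neither result shows that the 2 mutants act alike.

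The splenomegaly masses and the S62A lymphomas carry the same mutant, and the masses held more RNA of most Hox genes. Of the tested members 11 rose in the masses against S62A lymphomas and none fell, where 54.3% of all genes were called and 25.6% were rises. The 5 HoxA genes were Hoxa2 (2.37 ± 0.66, adjusted p = 0.0103), Hoxa3 (2.36 ± 0.48, 0.00161), Hoxa4 (3.12 ± 0.50, 0.000365), Hoxa5 (3.78 ± 0.74, 0.00139) and Hoxa7, with 44 against 3 reads, a ratio of 15.4 and an interval of 4.92 to 77.3 (0.0095). The others were Hoxb2 (2.29 ± 0.56), Hoxb3 (1.55 ± 0.58), Hoxb7 (2.84 ± 0.97), Hoxc4 (3.42 ± 0.69), Hoxd8 (2.19 ± 0.58) and Hoxd9 (4.67 ± 0.999), with adjusted p from 0.00162 to 0.0413. Hoxd9 had only 2, 6 and 0 reads in S62A lymphomas, and its difference ran from 3.8 to 6.07 over the alternatives, called in each. Hoxb4 did not pass the test (0.29 ± 0.58, adjusted p = 0.695), but without S62A lymphoma 3 it was called, at 1.60 (adjusted p = 0.00347), and the difference of Hoxb3 grew to 2.81. Hoxb3 lost its call without any other single library of these groups (adjusted p 0.0521 to 0.119), and Hoxb7 without S62A lymphoma 1 or 3 or mass 2 or 3 (0.0545 to 0.0768). The Hoxb3 call was also lost when only these groups were fitted. In the same comparison 7 of 7 B cell, 7 of 7 endothelial, 7 of 8 progenitor and 5 of 7 macrophage markers rose. Of the thymocyte markers 9 of 13 fell, as did 1 macrophage marker, and of 10 epithelial markers 3 rose and 4 fell. Of 10 fibroblast markers without Thy1, 2 rose and 1 fell, and 2 of 5 adipocyte markers rose. The part of these markers in the Hox differences was not tested.

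Against T58A lymphomas, 4 members rose in the masses and none fell, where 45.1% of all genes were called and 20.5% were rises. For 10 of the 17 members the libraries of the groups did not overlap, as for 56.0% of all genes. Hoxa4 rose by 2.06 ± 0.46 (adjusted p = 0.00392) and Hoxa5 by 2.86 ± 0.69 (adjusted p = 0.00644). Hoxb2 rose by 1.43 ± 0.53 (adjusted p = 0.0472), a call lost without any mass or T58A lymphoma 1 or 2 (0.0625 to 0.115). Hoxc4 rose by 1.77 ± 0.62 (adjusted p = 0.0355), a call lost without T58A lymphoma 1 or 3 or mass 2 or 3 (0.0613 to 0.104). Both calls were also lost with no filter and with the 2 groups alone, and that of Hoxb2 with library size alone and with summed transcripts. DESeq2 and limma each called 9 members in this comparison, all of them rises. Hoxd8 (1.28 ± 0.55) and Hoxd9 (1.90 ± 0.84) did not pass with all libraries. Without T58A lymphoma 2 both were called, at 2.11 (edgeR, adjusted p = 0.0112) and 3.33 (adjusted p = 0.0119). Here 7 of 7 B cell, 6 of 7 endothelial, 7 of 8 progenitor and 5 of 7 macrophage markers rose. Of the thymocyte markers 8 of 13 fell, as did 1 macrophage marker, and of 10 epithelial markers 2 rose and 3 fell. Of 10 fibroblast markers without Thy1, 1 rose and 1 fell. The part of these markers was not tested. Comparisons that share controls or lymphomas are not independent of each other.

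In several paralogue groups, though not in all, the leading gene of the controls came from HoxA and that of most other libraries from another cluster. The HoxA member was the most abundant of its group in all 3 controls for groups 2 to 7 and 9. For group 2, Hoxa2 held 71.3, 66.5 and 63.0% of the group's FPKM in controls, and Hoxb2 led in all 9 other libraries, with 52.2 to 86.5%. For group 4, Hoxa4 held 61.8, 55.9 and 54.1% in controls and 0.708 to 16.1% elsewhere, and Hoxb4 led in all 9 other libraries, with 52.3 to 94.0%. For group 3, Hoxa3 held 74.7 to 84.0% in controls, and Hoxb3 led in 7 of the other 9 libraries; Hoxa3 led in T58A lymphoma 3 and S62A lymphoma 2. For group 7, Hoxa7 held 98.0 to 100% in controls and Hoxb7 led in 8 of the other 9, the exception being S62A lymphoma 3, with 2 reads of Hoxa7 and none of Hoxb7.

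Other groups behaved differently. In group 5, Hoxa5 held 84.0 to 98.6% in controls and 84.7 to 87.9% in the splenomegaly masses, so that the masses kept the order of the controls, while in lymphomas its share ran from 9.18 to 64.9%. In group 9, Hoxa9 led in all 3 controls with 43.7 to 72.1%, and Hoxd9 led in the 3 T58A lymphomas, the 3 masses and the 2 S62A lymphomas with any read of the group. In group 8, which has no HoxA gene, Hoxd8 led in all 12 libraries with 78.4 to 100%.

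**Figure D4:**
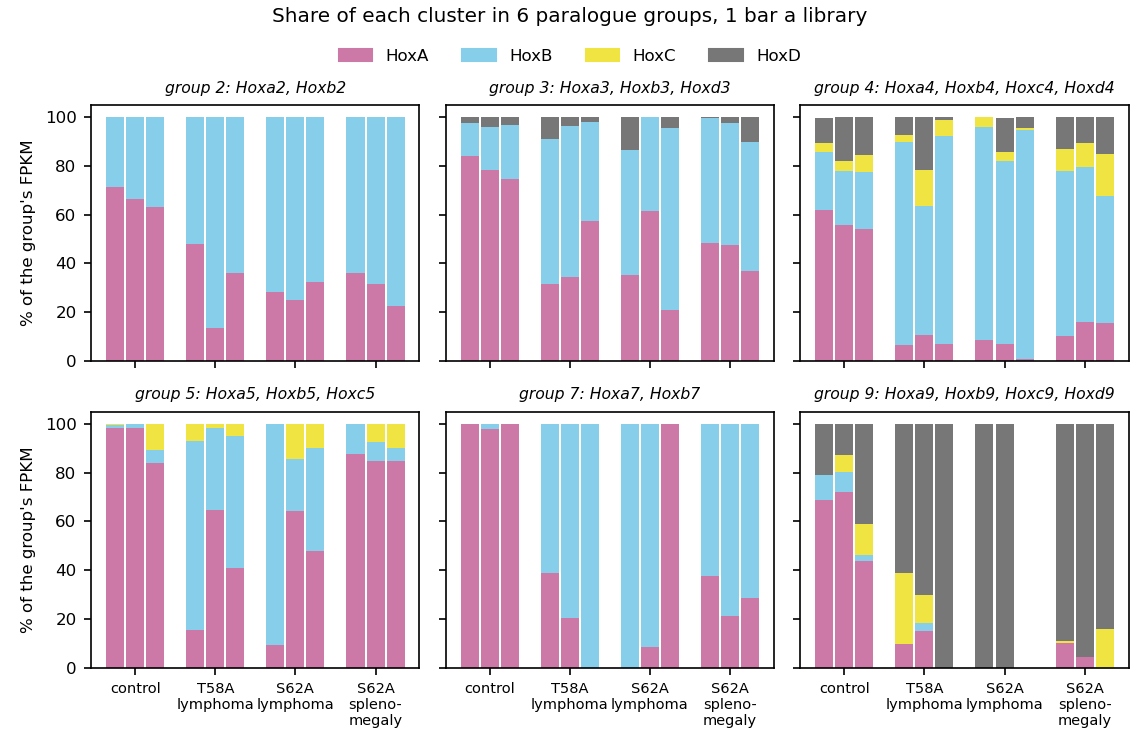
Share of the FPKM of each of 6 paralogue groups that came from each cluster, with 1 bar a library in the order of replicates; an empty place is a library with no read of the group. HoxA takes the largest share in all controls, HoxB takes over in groups 2 and 4 in all 9 other libraries, and HoxD takes over in group 9.

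Single libraries carried much of the signal of several low members. T58A lymphoma 2 held 54 of the 71 reads of Hoxd9 in its group, 26 of 29 of Hoxd1, 14 of 14 of Hoxc8 and 18 of 20 of Hoxa9. Its Hoxd8 level was 3.18 FPKM against 0.805 and 1.19 in the other T58A lymphomas. The same library had the highest B cell marker sum of its group, 250 FPKM against 169 and 17.8, and whether that bears on its Hox genes was not tested. S62A lymphoma 3 held 39 of the 43 reads of Hoxb13, 19 of 20 of Hoxc6 and 455 of 619 of Hoxb4 in its group. Its fibroblast markers without Thy1 summed to 535 FPKM against 160.0 and 199 in the other S62A lymphomas. Its 13 thymocyte markers summed to 1300 FPKM against 2180 and 2550. The part of either in its Hox levels was also not tested. Splenomegaly mass 1 held 20 of 23 reads of Hoxa9 and 16 of 17 of Hoxd10, and mass 3 held 14 of 18 of Hoxd3. Control 3 held 24 of 25 reads of Hoxc5. Its 5 adipocyte markers summed to 1540 FPKM against 138 and 173 in controls 1 and 2. Whether that bears on its Hox genes was not tested. With 3 libraries a group, such values cannot be set against a spread of their own.

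Of the 17 members below the filter, Hoxa6 had 13, 8 and 5 reads in controls, none in any of the 6 lymphomas, and 8, 14 and 0 in the masses. Hoxb6 had 1, 3 and 5 reads in controls and 17, 15 and 3 in the masses. Hoxc11 had 7, 5 and 1 reads in controls and none elsewhere. Hoxb9 had 12 reads in controls, 3 in T58A lymphoma 2 and none elsewhere. At this depth levels of these genes cannot be told from 0 in most libraries.

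The tested non-coding transcripts inside HoxA fell in both lymphomas against controls. In the masses Mira and Hotairm1 fell, though Hoxa2, beside Hotairm1, was not called. Of 18 other transcripts listed within the 4 clusters, 4 were tested. Mira (chr6:52164490-52165287, minus strand), beside Hoxa7 and known for activating Hoxa6 and Hoxa7, had 386, 221 and 164 reads in controls, 5, 21 and 4 in lymphomas with T58A, 0, 1 and 1 in those with S62A and 67, 26 and 38 in the masses. It fell by 4.55 ± 0.68 in T58A lymphomas (adjusted p = 0.000528), was 284 times lower in S62A lymphomas (interval 78.3 to 2350, adjusted p = 6.52e-05) and fell by 2.12 ± 0.60 in the masses (adjusted p = 0.0123), a call lost without control 1 (1.69 lower, adjusted p = 0.0709). Hotairm1 (chr6:52108523-52112019, plus strand), beside Hoxa2 and known from myeloid differentiation, had 107, 74 and 93 reads in controls and 4 to 31 in every other library. It fell by 2.83 ± 0.63 with T58A, 2.98 with S62A and 2.40 ± 0.62 in the masses. Hoxaas2 (chr6:52115673-52119450, plus strand), which overlaps the Hoxa3 span on the opposite strand, had 72, 64 and 70 reads in controls, 14, 13 and 32 in lymphomas with T58A, 7, 9 and 2 in those with S62A and 73, 22 and 23 in the masses. It fell in both lymphomas (1.62 in T58A, adjusted p = 0.0488; 3.05 ± 0.63 in S62A, adjusted p = 0.00292) and overlapped the controls in the masses. The T58A call was lost without any control or without T58A lymphoma 1 or 2 (0.0881 to 0.134). No source used here gives the strand setting of the counting, so reads of overlapping transcripts on opposite strands are uncertain.

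In HoxB, Gm11538 (chr11:96064768-96066794, plus strand), close to Hoxb13, had 2, 1 and 3 reads in controls, 0, 2 and 4 in lymphomas with T58A, 9, 62 and 651 in those with S62A and 7, 13 and 29 in the masses. It rose in S62A lymphomas against controls (7.26 ± 1.55, adjusted p = 0.00346) and against T58A lymphomas (7.08 ± 1.55, adjusted p = 0.0368). Of its 722 reads in S62A lymphomas 651 came from S62A lymphoma 3, the library that also held most reads of Hoxb13. Without it the rise over controls was 4.58 (adjusted p = 0.0102) and that over T58A lymphomas 4.39 (adjusted p = 0.0726); the latter call was also lost without any T58A lymphoma (0.0578 to 0.124).

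**Figure D5:**
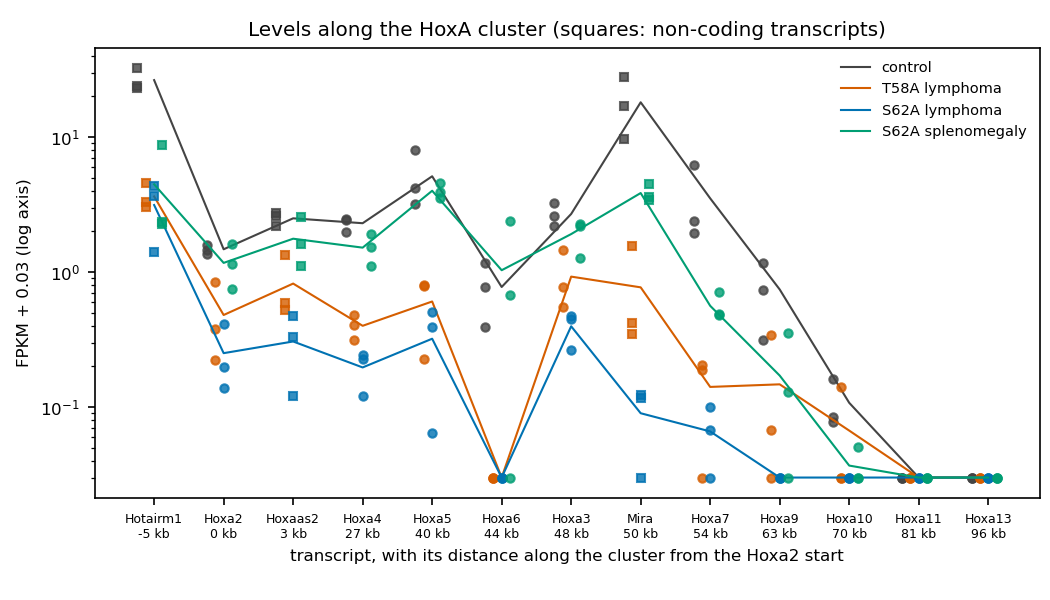
FPKM of 10 Hoxa genes (circles) and 3 non-coding transcripts (squares) in order of their place in the HoxA cluster, on a log axis with a small constant added so that 0 can be drawn; points are libraries and lines join the group means. From Hotairm1 to Mira and Hoxa7 the controls lie above the lymphomas.

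Proteins of the TALE class (Pbx, Meis and Pknox) bind DNA together with Hox proteins. Of 9 listed genes, 4 fell and none rose in each lymphoma group against controls, and 5 fell and 2 rose in the masses, where 36.2, 44.1 and 49.2% of all genes were called in T58A lymphomas, S62A lymphomas and masses. Meis1, which cooperates with Hoxa9 in leukaemia, stood at 4.96 ± 0.52 FPKM in controls (SD, n = 3), 1.25 ± 0.46 in lymphomas with T58A, 0.385 ± 0.106 in those with S62A and 1.62 ± 0.20 in the masses. It fell in all 3 against controls (1.97 ± 0.34, 3.58 ± 0.37 and 1.50, adjusted p of 0.00132, 4.18e-05 and 0.00364) and was lower in S62A than in T58A lymphomas (-1.61 ± 0.35, adjusted p = 0.037), a call lost without S62A lymphoma 1 or 2 or T58A lymphoma 2 or 3 (0.0594 to 0.113). Pbx2 fell in all 3 groups, by 0.87 ± 0.13, 0.77 ± 0.13 and 0.95 ± 0.13. Pbx3 and Pknox2 rose in the masses, by 2.33 ± 0.33 and 2.06 ± 0.52, and Pknox1 fell by 1.13 ± 0.11. Against S62A lymphomas, Pbx3 and Meis1 were higher in the masses (2.16 ± 0.33 and 2.08 ± 0.36) and Pknox1 and Meis3 lower (-1.01 ± 0.11 and -0.96 ± 0.19).

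MLL complexes keep Hox genes active by methylating histone H3. Of 15 genes of such complexes and their partners, 2 rose and 6 fell in T58A lymphomas, 2 rose and 3 fell in S62A lymphomas and 9 fell in the masses, beside the 36.2, 44.1 and 49.2% of all genes called. Men1, which encodes menin, fell in all 3, by 0.999 ± 0.107, 0.72 ± 0.11 and 1.04 ± 0.11, and Kmt2b fell in both lymphomas (0.98 ± 0.15 and 0.46 ± 0.15). Its S62A call was lost without any control or S62A lymphoma 2 or 3 (0.0504 to 0.0823). Ash2l and Wdr5, core subunits, rose in T58A lymphomas (0.64 ± 0.12 and 0.27 ± 0.10) and in S62A lymphomas (0.71 ± 0.12 and 0.36 ± 0.10). The Wdr5 call was lost in T58A lymphomas without any single library of the comparison (0.0663 to 0.155) and in S62A lymphomas without control 2 or 3 (0.0513 to 0.058). Kdm6b, which removes the Polycomb mark, fell by 1.97 ± 0.28 in the masses. Mllt1 was higher in S62A than in T58A lymphomas (0.66 ± 0.15, adjusted p = 0.0452), a call lost without S62A lymphoma 3 or T58A lymphoma 2 or 3 (0.0706 to 0.137). Mllt3, a subunit of the super elongation complex, was higher in the masses than in S62A and T58A lymphomas (1.09 ± 0.35 and 0.97 ± 0.35), while Ash2l was lower (-0.97 ± 0.12 and -0.90 ± 0.12), as were Mllt1 against S62A (-1.17 ± 0.16) and Aff1 against T58A lymphomas (-1.71 ± 0.25). The Mllt3 difference from S62A lymphomas was 0.70 without S62A lymphoma 3, and its calls were lost without mass 2 or 3 (0.0537 to 0.0959 over both comparisons) or any T58A lymphoma (0.0695 to 0.111).

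Polycomb complexes silence Hox genes. Of 22 genes, 2 rose and 7 fell in T58A lymphomas, 5 rose and 8 fell in S62A lymphomas and 1 rose and 10 fell in the masses, shares near those of all genes (36.2, 44.1 and 49.2%) in T58A lymphomas and masses, and none differed between the lymphomas (edgeR). Bmi1, a subunit of the complex that marks histone H2A, stood at 17.9 ± 1.9 FPKM in controls, 48.0 ± 9.2 in lymphomas with T58A, 61.9 ± 8.3 in those with S62A and 28.8 ± 1.3 in the masses, with rises of 1.45 ± 0.16, 1.89 ± 0.16 and 0.79 ± 0.16. Suz12 rose in both lymphomas (0.65 ± 0.19 and 0.999 ± 0.193), a call lost in T58A without any control or T58A lymphoma 1 or 3 (0.0517 to 0.0718). Phf1 fell by 1.49 ± 0.20 and 1.66 ± 0.20 in the lymphomas. In the masses Cbx2 fell by 2.71 ± 0.20 and Phc1 by 1.63 ± 0.19. The masses were below both lymphomas in Cbx2 (-1.48 ± 0.19 against T58A, -2.12 ± 0.20 against S62A) and in Ezh2, the methyltransferase (-1.51 ± 0.19 and -1.84 ± 0.19). Cbx7 was higher in the masses than in S62A lymphomas (1.54 ± 0.23) and Phf1 than in T58A lymphomas (0.89 ± 0.20).

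Cdx factors, retinoic acid and Egr2 of the hindbrain set Hox expression in the embryo. Of 17 tested genes of this list, 3 rose and 3 fell in T58A lymphomas, 3 rose and 6 fell in S62A lymphomas and 4 rose and 5 fell in the masses, where 36.2, 44.1 and 49.2% of all genes were called. Cdx2 had 9 reads in controls, 286 in lymphomas with T58A, 76 in those with S62A and 1 in the masses. It rose in both lymphomas (5.09 ± 0.98, adjusted p = 0.00248, and 3.50 ± 0.95, adjusted p = 0.0121). Its S62A lymphomas stood at 0.274, 2.03 and 0.290 FPKM, and without S62A lymphoma 2 the rise was 1.92 and not called (adjusted p = 0.0711). Cdx1 had 425, 490 and 372 reads in controls, T58A lymphomas and S62A lymphomas and 3 in the masses, 99.6 times lower than controls (interval 33.8 to 485, adjusted p = 0.00438). The S62A reads of Cdx1 came mostly from S62A lymphoma 1, at 12.7 FPKM against 0.695 and 0.839 in the others and 3.40 to 5.48 in controls. Aldh1a2, which makes retinoic acid, rose against controls in all 3 groups, by 1.58 ± 0.53, 1.96 ± 0.54 and 2.84 ± 0.55. The T58A call was lost without control 1 or 3 or any T58A lymphoma (0.0633 to 0.135) and the S62A call without control 1 or S62A lymphoma 2 (0.0532 to 0.0536). Egr2 fell by 2.80 ± 0.33 and 3.16 ± 0.34 in the lymphomas and was higher in the masses than in either (2.35 ± 0.33 over T58A and 2.72 ± 0.34 over S62A). Ctcf fell in all 3, by 0.56 ± 0.13 with T58A, 0.43 ± 0.13 with S62A and 0.86 ± 0.13 in the masses, with the S62A call lost without control 1 or 2 or S62A lymphoma 1 or 3 (0.0608 to 0.0675). Rxra, a retinoid receptor, stood at 7.20 FPKM in controls, 6.16 in lymphomas with T58A, 3.18 in those with S62A and 17.9 in the masses; it fell in S62A lymphomas (1.08 ± 0.19), was lower there than in T58A lymphomas (-0.88 ± 0.19, adjusted p = 0.0328, lost without S62A lymphoma 2 or 3 or T58A lymphoma 2 at 0.065 to 0.0934) and rose in the masses (1.42 ± 0.19).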

How the data were processed

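Read counts, whole numbers for each RefSeq transcript and library, were deposited by the authors, as were FPKM values. The submitters' processing notes name bcl2fastq 2.20.0.422, Bowtie 1.0.0, DESeq2 and build mm9. How reads were counted, on which strand and with what treatment of several matches, no source used here gives. Intervals and floors pool the reads of a group and cover counting error only, not the spread between its libraries. Reads copied from 1 molecule by PCR cannot be told apart either. Starts were treated as counted from 0 and are printed from 1, since end minus start equalled the GRCm38 length for 7729 transcripts under that reading and for 878 under the other. Another 25101 matched neither reading.

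The tests used edgeR 4.0.16 in R 4.3.3: filterByExpr by group with a minimum count of 10 (15606 genes), TMM factors, and 1 quasi-likelihood fit (glmQLFit, glmQLFTest) of group over all 12 libraries, adjusted by Benjamini and Hochberg with a threshold of 0.05. Alternatives used DESeq2 1.42.0, limma 3.58.1 on log2(FPKM + 0.1), library size alone, no filter, summed transcripts, the groups compared alone, and each library left out. A member at 0 reads in a group was given 3 reads over the group; with 1 to 3 reads the ratio has an exact 95% interval. On simulated counts for T58A lymphomas against controls with 199 genes changed 4-fold among 15215, the test recovered 92% of the changed genes. That share is over all 199 changed genes. Every simulated gene was given the same spread between libraries beyond counting error. Recovery at the spread of the Hox genes, or at read counts as low as theirs, was not tested.

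Named were all members called in any of 6 comparisons or reaching a mean of 1 CPM in a group, members with at least 10 reads mostly in 1 library, and from each list up to 2 risen and 2 fallen genes per comparison. Some genes that meet this rule are not reported here, though counts include them. Members and lists were chosen with earlier results of these data known. Members that are named without meeting this rule (Hoxa6, Hoxb6, Hoxb9 and Hoxc11), Cd74 and Thy1 left out of their lists, and the windows printed were chosen after the values were seen.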

Additional observations from a re-analysis of the deposited data

How the results depend on the processing

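Of 38 calls of Hox genes over the 6 comparisons, 23 were kept under every alternative run, 15 were lost under 1 or more, and none changed direction. The number of Hox genes called depended on the setting in several comparisons. For T58A lymphomas against controls, where 7 were called, it was 3 to 7 with single libraries left out (3 without control 1, 4 without control 2) and 0 with control 3 alone, where the lone control is assumed to vary like the other groups and 4 members had an unadjusted p under 0.05. For S62A lymphomas against controls it stayed at 7 to 8 with single libraries left out. For the splenomegaly masses against controls, with 9 called, it was 5 to 10, the lowest without control 1. For S62A against T58A lymphomas, with 0 called, it was 1 with DESeq2 and 0 to 1 with single libraries left out, the 1 being without S62A lymphoma 3. For the masses against T58A lymphomas, with 4 called, it was 9 with DESeq2, 9 with limma and 2 to 5 with single libraries left out, 2 without T58A lymphoma 1 and 2 without mass 2. For the masses against S62A lymphomas 11 were called. There DESeq2 (adjusted p = 0.0191) and edgeR on summed transcripts (0.0458) also called Hoxa9, and limma also called Hoxd4 (0.0276). Fewer samples enter a fit with a library left out. The cause of the other shifts was not tested. No paired analysis was possible because replicates were numbered by accession and the numbers tie no libraries together. Most tested members rest on under 100 reads a group, so the depth limits what could be detected. The 17 members below the filter were not in the main test, but some entered alternative fits. With no filter, edgeR called Hoxa6 higher in the masses than in S62A and T58A lymphomas (adjusted p = 0.0358 and 0.0366). It also called Hoxb6 higher in the masses than in S62A lymphomas (adjusted p = 0.0471). Some such members were also called with single libraries left out, and the counts above include them.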

Other observations

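Genes next to the Hox clusters were called in both directions. Of 24 flanking transcripts 11 were tested: 4 rose in T58A lymphomas against controls, 2 rose and 1 fell in S62A lymphomas, and 3 rose and 4 fell in the splenomegaly masses (edgeR, adjusted p under 0.05). Over all genes 36.2, 44.1 and 49.2% were called in these comparisons. Skap2 and Snx10, beside HoxA, rose in the masses by 2.45 ± 0.23 and 1.84 ± 0.18 on the log2 scale, where Hoxa7 fell and no HoxA gene rose. Skap2, an adaptor protein of myeloid cells, stood at 20.7 ± 0.5 FPKM in controls (SD, n = 3), 29.0 ± 7.3 in lymphomas with T58A, 24.9 ± 6.5 in those with S62A and 104.9 ± 9.4 in the masses. Skap1, its T cell relative beyond the Hoxb1 end of HoxB, stood at 172.3 ± 15.4 FPKM in controls, 76.6 ± 68.3 in lymphomas with T58A, 40.8 ± 33.5 in those with S62A and 17.9 ± 3.1 in the masses. It fell in S62A lymphomas by 1.99 ± 0.68 (adjusted p = 0.0335, lost without any control or S62A lymphoma 1 or 3 at 0.0601 to 0.0858) and in the masses by 3.15 ± 0.71 (adjusted p = 0.00378), while Hoxb4 rose in both. The macrophage and thymocyte markers moved in the same directions as Skap2 and Skap1; their part was not tested. Mtx2, beside HoxD, rose in both lymphomas (0.80 ± 0.19 in T58A and 0.94 ± 0.19 in S62A), where no HoxD gene was called.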
